A study of Mus musculus with 5 samples.

Results

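The genes described here are 10 growth factors and receptors of the FGF, HGF and EGF families, which were listed by symbol and matched through their Ensembl identifiers to 10 of the 21835 genes in the expression table. They are the FGF ligands *Fgf2*, *Fgf7* and *Fgf10*, the receptor gene *Fgfr1*, *Hgf* and its receptor gene *Met*, the EGF family ligands *Hbegf*, *Areg* and *Ereg*, and the receptor gene *Egfr*. The rule is a list of symbols, drawn up with earlier results of these data known, so the counts below are descriptions of these genes. Bulk RNA of murine lung cancer-associated fibroblasts (CAFs) was sequenced to look for genes through which miR-200 acts in these cells. CAF-vec (2 samples, genotype given as WT control) were infected with the empty lentiviral vector, and CAF-200 (3 samples) with a vector carrying the clustered microRNAs miR-429, miR-200a and miR-200b. Both groups were grown in the same medium, and the labels describe G418 selection of the infected cells for more than 2 weeks. The cells came from mouse lung, and the sources used here do not say whether a group was 1 infection, 1 isolate of CAFs or several, so the *p* values measure only the spread between these samples, which may be technical.

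FGF ligands are secreted proteins that are held by heparan sulfate and signal through receptor tyrosine kinases, and in the lung the mesenchymal ligands FGF7 and FGF10 act mainly on epithelial cells through a splice form of FGFR2. HGF is secreted by mesenchymal cells as an inactive precursor, is cleaved by serine proteases and activates MET, whose signaling promotes epithelial motility. The EGF family ligands HB-EGF, amphiregulin (*Areg*) and epiregulin (*Ereg*) are made as membrane-bound precursors that metalloproteases release to act on EGFR and its relatives.

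RNA of the FGF ligand *Fgf7* and the EGF family ligand *Ereg* rose in CAF-200, and that of *Fgf10* fell. *Fgf7* was 2.33-fold and *Ereg* 3.12-fold higher in CAF-200 by the ratio of group means, and both were called higher. *Fgf10* was 1.93-fold lower in CAF-200, which passed the threshold on adjusted *p* but not that on fold-change. For each of these genes the adjusted *p* (limma) lay above 0.01 when any of the CAF-200 samples was left out. *Hbegf* (1.98-fold), *Hgf* (1.62-fold) and *Met* (1.61-fold) were higher in each of the 3 CAF-200 samples than in both CAF-vec samples. Over all genes tested, CAF-200 lay above without overlap for 24.3% and below for 37.3%. The adjusted *p* values of these 3 genes lay between 0.0118 and 0.0168 (limma), which miss the threshold of 0.01. In bulk samples, a change in RNA per cell and a change in the share of cells that make it cannot be told apart.

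The vector in CAF-200 carried 3 microRNAs, and their mature sequences are shown because their seeds, the bases from 2 to 8 that pair with target RNAs, define the matches searched for in the members. They lie on the minus strand of chromosome 4 (RefSeq, GRCm38.p6), the first between 156054911 and 156054932, the second between 156055685 and 156055706 and the last between 156053916 and 156053937. Seeds are in capitals.
miR-200a-3p: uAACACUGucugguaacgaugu
miR-200b-3p: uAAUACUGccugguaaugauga
miR-429-3p: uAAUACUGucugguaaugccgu
The seed of miR-200b-3p is also that of miR-429-3p, so a match to it cannot be assigned to either of them. Its match in a target reads CAGTATT, and the match to the seed of miR-200a-3p reads CAGTGTT. Both were searched in the transcript sequence of the longest 3′-UTR annotated for each gene (GENCODE M21, GRCm38).

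Of the 10 genes, 6 held at least 1 seed match, 9 matches in all, and the other 4 (*Fgfr1*, *Hbegf*, *Areg* and *Ereg*) held none in the UTR searched. Among all genes tested that have an annotated 3′-UTR, 30.2% held a match to either seed, 15.8% to CAGTATT and 20.8% to CAGTGTT, but this share grows with UTR length. Of tested genes with a UTR within 20% of the length of that of *Fgf10*, 54.0% held a match. The corresponding share was 34.0% for *Fgf7*, 25.8% for *Hgf*, 42.6% for *Met*, 78.0% for *Egfr* and 71.9% for *Fgf2*, and, of the genes that held none, 60.1% for *Ereg*, 37.7% for *Fgfr1*, 31.5% for *Hbegf* and 5.83% for *Areg*. The matches of the FGF ligand that was lower, of the FGF ligand that was called higher, and of *Hgf* are shown with flanking bases so that they can be set beside the measured changes. Capitals mark the seed match.
Fgf10, chr13:118791009-118791015, plus strand: ttcattgtttggattCAGTATTttgatagg
Fgf7, chr2:126090051-126090057, plus strand: actacagacgatgagCAGTGTTtgaaagct
Hgf, chr5:16619735-16619741, plus strand: atgaccgccactggaCAGTGTTtaatgtga
All coordinates are on GRCm38 and cover the 7 matching bases. *Egfr* held 1 match to the miR-200a-3p seed and 2 to the shared seed, and *Fgf2* held 1 to the shared seed. Of the transcripts with an annotated 3′-UTR, all of *Fgf10* (1 of 1) and *Fgf7* (2 of 2) held a match, against 1 of 3 each for *Hgf*, *Met* and *Egfr* and 1 of 2 for *Fgf2*. Genes with a match thus included *Fgf10*, which was lower in CAF-200, and *Fgf7*, *Hgf* and *Met*, which had higher values there. A match is a run of letters and was not tested as a binding site.

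**Figure D1:**
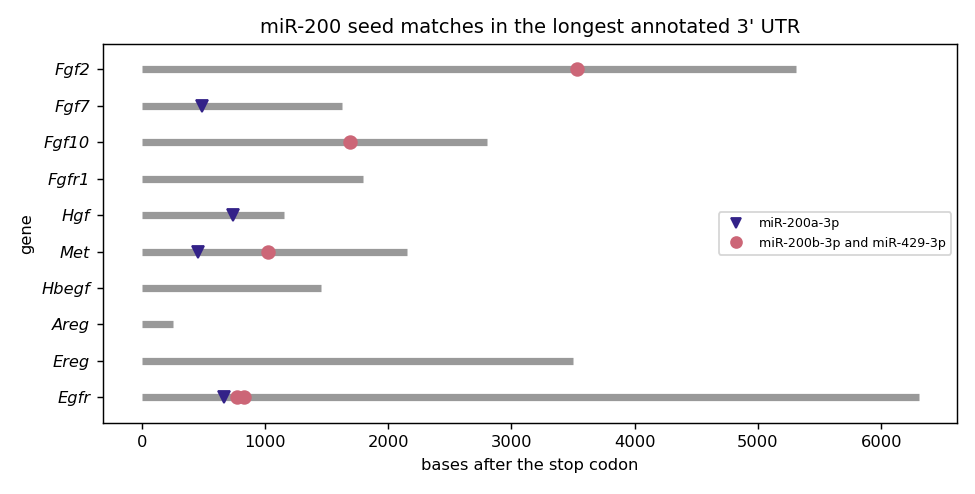
Seed matches in the longest annotated 3′-UTR of each of the 10 genes, drawn to scale. The horizontal axis is the distance from the stop codon in bases, each bar is 1 UTR, triangles mark matches to the miR-200a-3p seed and circles matches to the seed of miR-200b-3p and miR-429-3p. *Egfr*, with the longest UTR of the 10 (6303 bases), has 3 matches, and *Ereg* (3501 bases) has none.

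The deposited values are CPM, read counts scaled to a fixed total per sample, after the authors' normalization, so depth per sample is unknown, and fold-changes were computed on log2(CPM + 0.5), a scale that understates the change of genes at low levels. A gene was tested if it reached 0.5 CPM in at least 2 samples (12175 genes) and was called at an adjusted *p* under 0.01 with a log2 fold-change beyond 1, the thresholds used in the study. Samples differed more within CAF-vec, where the log2 differences between the 2 samples had an SD of 0.490 over the genes tested, than within CAF-200, where it was 0.192 to 0.204. The 3 CAF-200 columns were also at 0 for the same 6127 genes, with 0 genes at 0 in only some of them, and each held 816 to 1108 values above 0 but under 0.005 CPM, of which the CAF-vec columns held 0. How this affects the spread within CAF-200 was not tested. The miR-200 targets *Zeb1* (43.5 and 50.8 CPM in CAF-vec; 37.8, 37.5 and 34.1 CPM in CAF-200; log2 fold-change -0.36, limma adjusted *p* = 0.0504) and *Zeb2* (46.2 and 29.8 CPM in CAF-vec; 31.9, 31.8 and 31.1 CPM in CAF-200; log2 fold-change -0.23, limma adjusted *p* = 0.374) did not pass the test, and the table held 0 rows for the miR-200 precursors. Of 10 fibroblast markers, 9 were above 1 CPM in all 5 samples (*Fap* was not), while all 8 epithelial markers stayed below 0.5 CPM in every sample.

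Of the 10 genes, 9 were tested and 2 were called higher and 0 lower, beside 2.37% of all genes tested called higher and 2.35% called lower. At an adjusted *p* under 0.01 alone, 2 were higher and 1 lower (4.45% and 5.57% of all genes tested). The values of the groups did not overlap for any of the 9, with CAF-200 above CAF-vec for 7 and below it for 2, whereas over all genes tested CAF-200 lay above without overlap for 24.3% and below for 37.3%. The median log2 fold-change was 0.70 over the 9 genes and -0.094 over all genes tested, and 8 of the 9 had an unadjusted *p* under 0.05, as had 5469 of the 12175 genes tested. With 2 samples against 3 an exact permutation test of a single gene cannot give a *p* under 0.1, so the *p* values come from the fit across all genes.

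**Figure D2:**
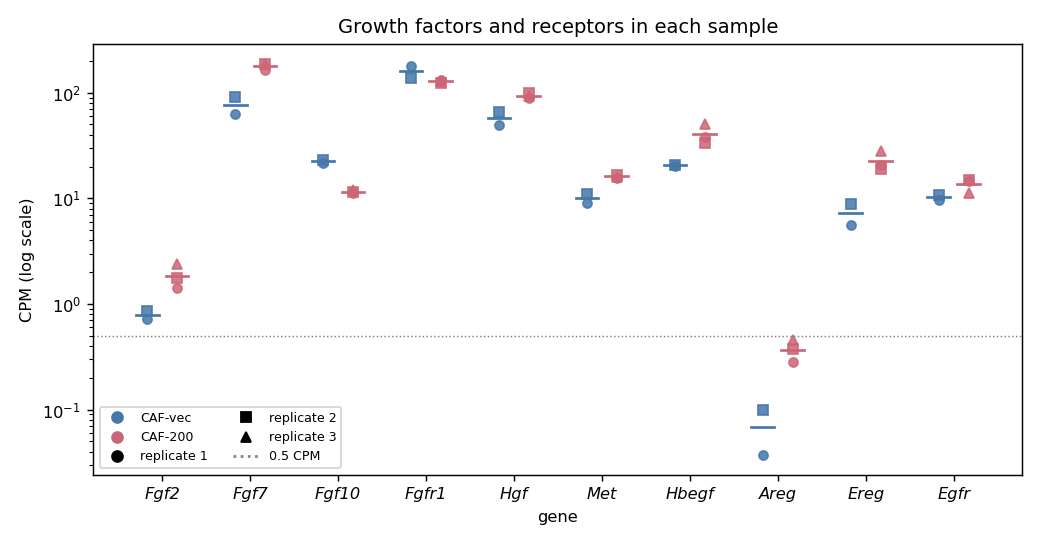
RNA level of each gene in each sample, in CPM on a log axis, with CAF-vec in blue and CAF-200 in red, symbols for the replicate number and a bar at the group mean. For all 10 genes the 2 groups are apart, *Fgf10* and *Fgfr1* with CAF-200 below and the other 8 with CAF-200 above, and *Areg* lies under the 0.5 CPM line in all 5 samples. Over all genes tested, the groups were apart with CAF-200 above for 24.3% and below for 37.3%.

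*Fgf7* and *Fgf10* moved in opposite directions. *Fgf7* (ENSMUSG00000027208, chromosome 2, 126034658 to 126091185), the keratinocyte growth factor, was 62.6 and 91.5 CPM in CAF-vec against 165.1, 185.1 and 188.7 CPM in CAF-200. Even the lowest CAF-200 sample thus lay far above the higher CAF-vec sample. The means were 77.1 ± 20.4 CPM (SD, n = 2) for CAF-vec and, for CAF-200, 179.6 ± 12.7 CPM (SD, n = 3), and the log2 fold-change was 1.24 (95% interval 0.80 to 1.67, standard error 0.175, limma adjusted *p* = 0.00753). It ranked 254 from the highest among the 12175 genes tested. The call was lost without CAF-vec 1, when the log2 fold-change was 0.97, and without CAF-200 1, 2 or 3, when it was 1.30, 1.21 or 1.20 with adjusted *p* values of 0.036, 0.0442 and 0.0485 (limma). It was also lost with no filter on low values (limma adjusted *p* = 0.0134).

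*Fgf10* (ENSMUSG00000021732, chromosome 13, 118669791 to 118792115), the mesenchymal ligand needed for lung bud outgrowth, was 21.6 and 23.1 CPM in CAF-vec against 11.2, 11.6 and 11.9 CPM in CAF-200. Replicates lay close together in both groups and the groups were well apart. The level fell by 0.92 on the log2 scale (95% interval -1.15 to -0.70, standard error 0.0902, limma adjusted *p* = 0.00331) from a mean of 22.3 ± 1.06 CPM (SD, n = 2) to 11.5 ± 0.342 CPM (SD, n = 3). This adjusted *p* was the lowest among the 9 genes, with the fold-change just short of the threshold. It rose past 0.01 without CAF-200 1, 2 or 3 (0.0303, 0.0303 and 0.0308, limma), while the log2 fold-change stayed between -0.94 and -0.90. The ratio of *Fgf7* to *Fgf10* in CPM, a comparison within each sample that does not depend on its scaling, was 2.90 and 3.97 in CAF-vec and 14.8, 16.0 and 15.9 in CAF-200, so the mean ratio was 4.52-fold higher in CAF-200. The ratio restates the opposite changes of both genes and is no separate test.

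*Fgf2* (ENSMUSG00000037225, chromosome 3, 37348346 to 37410108), basic FGF, which leaves cells without a signal peptide, had the lowest level per kilobase of the 3 FGF ligands. It was 0.722 and 0.859 CPM in CAF-vec against 1.41, 1.75 and 2.39 CPM in CAF-200. All 3 CAF-200 samples were higher, but the log2 fold-change of 0.85 (95% interval 0.33 to 1.36, limma adjusted *p* = 0.0308) did not pass the threshold. The gene overlaps *Nudt6* on the opposite strand over 9.44% of its exon bases. The libraries were stranded, but the sources used here do not state whether strand was used in counting, so reads of the overlap may belong to either gene.

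*Fgfr1* (ENSMUSG00000031565, chromosome 8, 25513654 to 25575718), the receptor of FGF2 and many other FGFs in mesenchymal cells, was 179.7 and 139.2 CPM in CAF-vec against 132.5, 122.9 and 128.6 CPM in CAF-200. All 3 CAF-200 values were below both CAF-vec values, but the higher CAF-vec sample stood well apart from the other 4 samples. The log2 fold-change was -0.30 (95% interval -0.63 to 0.016, limma adjusted *p* = 0.124), an interval that includes 0. Without CAF-vec 2 it was -0.49 and without CAF-vec 1 it was -0.12, so the value rested on which CAF-vec sample was used.

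*Hgf* (ENSMUSG00000028864, chromosome 5, 16553495 to 16620152), hepatocyte growth factor, was 49.6 and 65.6 CPM in CAF-vec against 88.5, 98.6 and 92.3 CPM in CAF-200. Its receptor gene *Met* (ENSMUSG00000009376, chromosome 6, 17463800 to 17573980) was 8.98 and 11.0 CPM in CAF-vec against 15.7, 16.8 and 15.9 CPM in CAF-200. Both genes were thus higher in all CAF-200 samples, by a similar amount. The log2 fold-change was 0.70 for *Hgf* (95% interval 0.36 to 1.04, limma adjusted *p* = 0.0168) and 0.67 for *Met* (95% interval 0.38 to 0.96, limma adjusted *p* = 0.0118), and neither passed the threshold. The ratio of *Hgf* to *Met* in CPM was 5.52 and 5.98 in CAF-vec and 5.65, 5.87 and 5.83 in CAF-200, so the groups overlapped in the proportion of ligand to receptor RNA. Without CAF-vec 1 the log2 fold-change was 0.50 for *Hgf* and 0.53 for *Met*, and without CAF-vec 2 it was 0.90 and 0.81. These fits rest on a lone CAF-vec sample, so only the fold-changes are given. Without CAF-200 1, 2 or 3 the adjusted *p* values (limma) were 0.0619, 0.0769 and 0.0789 for *Hgf* and 0.0559, 0.0654 and 0.0631 for *Met*. *Hgf* overlaps *Gm43489* on the same strand over 6.7% of its exon bases.

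*Ereg* (ENSMUSG00000029377, chromosome 5, 91074622 to 91093646), which encodes epiregulin, a ligand of EGFR and ERBB4, had the largest log2 fold-change of the 9 genes tested. It was 5.58 and 8.89 CPM in CAF-vec against 20.6, 18.9 and 28.3 CPM in CAF-200. The lowest CAF-200 sample lay above both CAF-vec samples by more than the range of either group. The means were 7.24 ± 2.34 CPM (SD, n = 2) and 22.6 ± 5.00 CPM (SD, n = 3), and the log2 fold-change was 1.59 (95% interval 0.98 to 2.21, standard error 0.248, limma adjusted *p* = 0.00899), rank 117 from the highest. The call was lost without CAF-200 1, 2 or 3, when the log2 fold-change was 1.65, 1.71 or 1.42 with adjusted *p* values of 0.0411, 0.0381 and 0.0444 (limma). It was also lost with no filter on low values (limma adjusted *p* = 0.0176) and with no variance trend (limma adjusted *p* = 0.0104). An antisense gene, *Gm19610*, overlaps 3.42% of the exon bases of *Ereg*.

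*Hbegf* (ENSMUSG00000024486, chromosome 18, 36504927 to 36515805), heparin-binding EGF-like growth factor, was 20.2 and 20.7 CPM in CAF-vec against 37.7, 33.6 and 50.4 CPM in CAF-200. The CAF-vec samples were nearly equal, and the CAF-200 samples were higher with a wider spread, led by replicate 3. The log2 fold-change of 0.95 (95% interval 0.51 to 1.39, limma adjusted *p* = 0.0147) passed neither threshold. *Areg* (ENSMUSG00000029378, chromosome 5, 91139599 to 91148432), near *Ereg* on the same strand, was 0.037 and 0.0991 CPM in CAF-vec against 0.282, 0.373 and 0.452 CPM in CAF-200. These levels are under the filter, so *Areg* was not tested, although the 3 CAF-200 values lay above both CAF-vec values. Fitted without a filter its log2 fold-change was 0.61 (limma adjusted *p* = 0.0194).

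*Egfr* (ENSMUSG00000020122, chromosome 11, 16752203 to 16918158), the receptor of these ligands, was 9.67 and 10.8 CPM in CAF-vec against 14.6, 14.8 and 11.3 CPM in CAF-200. CAF-200 replicate 3, which had the highest *Ereg*, *Hbegf* and *Areg* of all samples, had the lowest *Egfr* of its group, close to CAF-vec 2. The log2 fold-change of 0.38 (95% interval 0.0079 to 0.75, limma adjusted *p* = 0.106) did not pass the threshold.

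**Figure D3:**
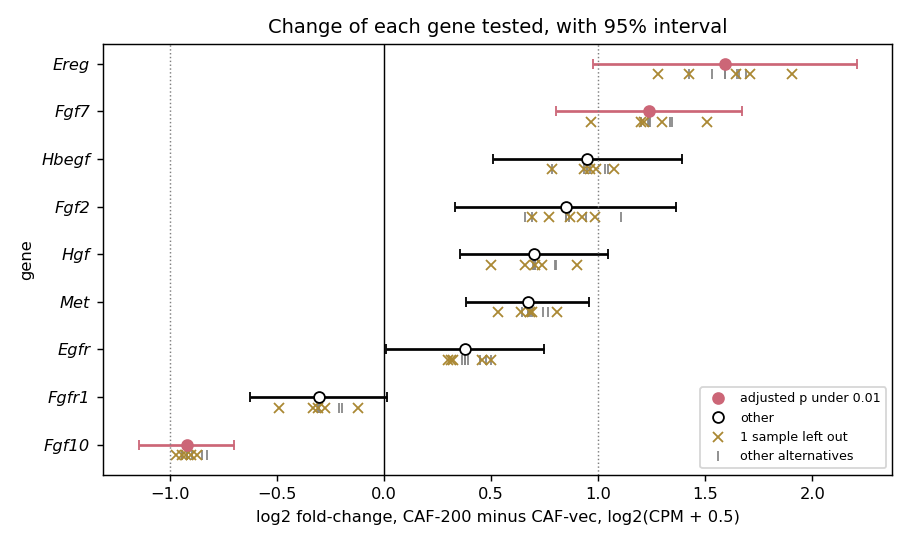
Log2 fold-change of CAF-200 over CAF-vec on log2(CPM + 0.5) for the 9 genes tested (horizontal axis), with circles at the estimate and bars for the 95% interval. Filled red circles mark an adjusted *p* under 0.01 (*Ereg*, *Fgf7* and *Fgf10*), crosses the values with 1 sample left out, small ticks those of other alternatives, and dotted lines the fold-change threshold of 1 on the log2 scale. Each gene keeps its side of 0 in every alternative drawn.

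Levels of the 10 genes were compared with each other per kilobase of exon. In CAF-vec the order of mean CPM per kilobase was *Fgf7* (23.7), *Fgfr1* (16.1), *Hgf* (8.02), *Fgf10* (4.85), *Hbegf* (4.23), *Ereg* (1.75), *Met* (1.30), *Egfr* (0.905), *Fgf2* (0.117) and *Areg* (0.056). *Ereg* and *Met* overlapped between samples in that group and the other neighbors did not. In CAF-200 the order was *Fgf7* (55.3), *Fgfr1* and *Hgf* (12.96 each, overlapping), *Hbegf* (8.39), *Ereg* (5.48), *Fgf10* (2.51), *Met* (2.10), *Egfr* (1.20), and *Areg* (0.303) and *Fgf2* (0.273), which overlapped. *Fgf10* was thus above *Hbegf* and *Ereg* in CAF-vec and below both in CAF-200.

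The make-up of each ligand family shifted in the same samples. Of the summed CPM per kilobase of 22 FGF ligand genes, *Fgf7* took 78.1% and 83.5% in CAF-vec and 90.4%, 92.5% and 91.3% in CAF-200. The share of *Fgf10* was 19.0% and 14.9% in CAF-vec and 4.33%, 4.08% and 4.06% in CAF-200, so that both ligands together made up most of the FGF ligand RNA in every sample. Among 7 EGF receptor ligand genes, *Hbegf* was the leading one in all 5 samples, with 67.9% and 60.8% in CAF-vec and 56.4%, 56.1% and 56.3% in CAF-200. The share of *Ereg* was 21.9% and 30.6% in CAF-vec and 36.2%, 36.9% and 37.0% in CAF-200, without overlap. *Fgfr1* held 82.7% and 79.0% of the summed RNA per kilobase of the 4 FGF receptor tyrosine kinase genes in CAF-vec and 88.5%, 88.1% and 87.7% in CAF-200. Its share was higher in CAF-200 although its own level was not. Shares are descriptions and were not tested.

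**Figure D4:**
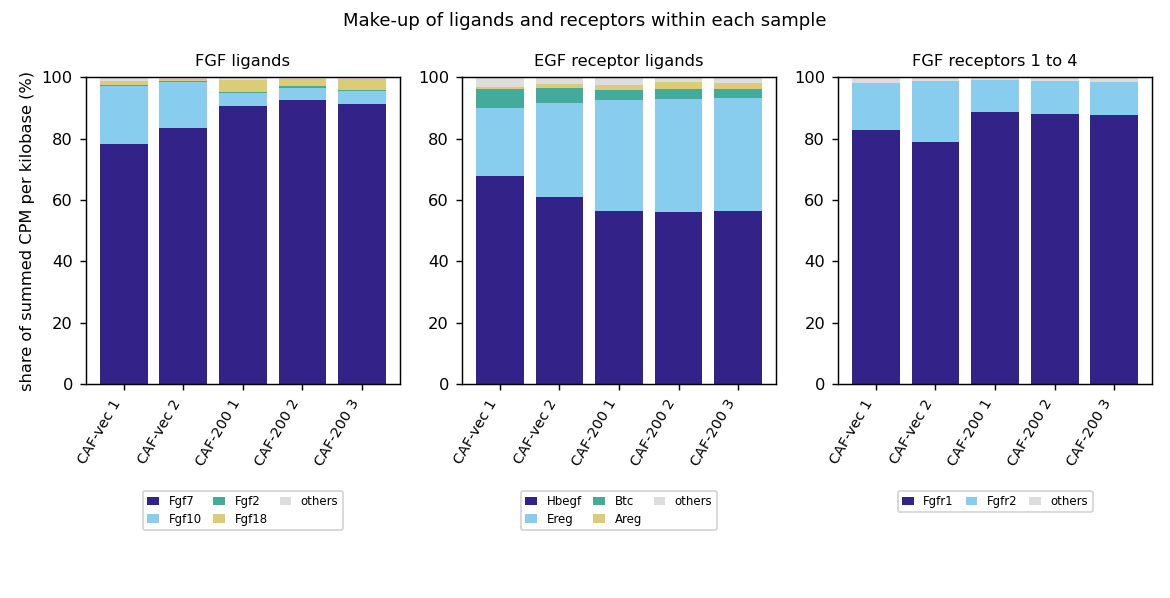
Share of each gene in the summed CPM per kilobase of exon of its family (vertical axis, percent) in each of the 5 samples, for 22 FGF ligands, 7 EGF receptor ligands and 4 FGF receptors. *Fgf10* narrows from 19.0% and 14.9% in CAF-vec to between 4.06% and 4.33% in CAF-200, and *Ereg* widens from 21.9% and 30.6% to between 36.2% and 37.0%.

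Other genes of the same pathways were taken from lists of 85 genes, of which 49 were tested. Of these, 5 were called higher and 2 lower, and at an adjusted *p* under 0.01 alone 10 were higher and 5 lower, with a median log2 fold-change of 0.14. Over all genes tested, 2.37% were called higher and 2.35% lower, and 4.45% and 5.57% passed on adjusted *p* alone, and the lists too were drawn up with earlier results known. The 5 lower were *Fgfr2*, *Flrt3*, *Erbb2*, *Rhbdf1* and *Ndst2*, and *Rhbdf1* and *Ndst2* were named after their values were seen. Of each list the gene with the most CPM on average was also named, a choice that favors long genes and is no comparison of levels. Of the 19 other FGF ligand genes, 18 were too low to be tested, and the remaining one, *Fgf18*, was 0.325 and 0.298 CPM in CAF-vec against 2.71, 1.66 and 2.64 CPM in CAF-200. *Fgf18*, a ligand active in bone, cartilage and lung development, had a log2 fold-change of 1.78 (limma adjusted *p* = 0.00506) and was called higher. At this low level the value ran from 1.33 with a pseudocount of 1 CPM to 2.54 with 0.1 CPM, and the gene did not enter the fit with a filter of 1 CPM in every sample. *Fgfr2*, the gene whose epithelial splice form binds FGF7 and FGF10, was 35.2 and 36.6 CPM in CAF-vec against 16.6, 15.8 and 16.7 CPM in CAF-200. It was called lower (log2 fold-change -1.11, limma adjusted *p* = 0.00253), and the table does not separate its splice forms. *Fgfr2* overlaps *Ctbp2* on the same strand over 3.04% of its exon bases. The ratio of *Fgf7* to *Fgfr2* in CPM, which also restates the single-gene values, was 1.78 and 2.50 in CAF-vec and 9.92, 11.8 and 11.3 in CAF-200. *Fgfrl1*, which encodes an FGF receptor without a kinase domain, was 150.1 and 68.7 CPM in CAF-vec against 61.2, 57.2 and 62.4 CPM in CAF-200, and its log2 fold-change of -0.75 did not pass the threshold (limma adjusted *p* = 0.12), with 1 of the 2 CAF-vec samples close to the CAF-200 samples.

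Among proteins that bind FGFs or dock on their receptors, *Flrt3*, a membrane partner of FGF receptors, was called lower from a level of 0.673 and 0.719 CPM in CAF-vec to 0.0707, 0.102 and 0.0617 CPM in CAF-200 (log2 fold-change -1.05, limma adjusted *p* = 0.00827). Its log2 fold-change was -0.65 with a pseudocount of 1 CPM, short of the fold-change threshold, and -2.17 with 0.1 CPM, and without either CAF-vec sample it fell under the filter. *Flrt2*, of the same family and named after its values were seen, rose from 9.59 and 10.7 CPM to 17.8, 16.9 and 19.4 CPM (log2 fold-change 0.80, limma adjusted *p* = 0.00642). The docking protein gene *Frs2*, of the highest mean CPM in this list, had a log2 fold-change of -0.19 (limma adjusted *p* = 0.28). Heparan sulfate is the co-receptor of FGFs and HGF, and of the 10 genes for its modification that were tested, 2 were called higher, beside 2.37% of all genes tested. *Sulf1*, a secreted sulfatase that removes sulfate groups at the cell surface, was 3.81 and 5.29 CPM in CAF-vec against 24.8, 25.3 and 24.4 CPM in CAF-200. Its log2 fold-change of 2.34 (limma adjusted *p* = 0.00145) was the largest of the pathway genes. With a pseudocount of 0.1 CPM that of *Fgf18* was larger (2.535 against 2.441 for *Sulf1*). *Hs6st2*, a sulfotransferase gene, was 34.9 and 24.8 CPM in CAF-vec against 61.6, 65.1 and 60.2 CPM in CAF-200 (log2 fold-change 1.07, limma adjusted *p* = 0.00771). *Ext1*, which encodes a polymerase of the heparan sulfate chain and had the highest mean CPM of this list over all 5 samples (in CAF-vec alone *Ext2* had), rose by less (log2 fold-change 0.81, limma adjusted *p* = 0.00474). *Ndst2* and *Ndst1*, which encode enzymes that start sulfation of the chain, went the other way: *Ndst2* fell by 0.88 on the log2 scale (limma adjusted *p* = 0.00569), and *Ndst1*, also named after its values were seen, had a log2 fold-change of -0.50 (limma adjusted *p* = 0.0118).

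Of the 9 genes for release of EGF family ligands, *Adam12*, a metalloprotease gene linked to HB-EGF shedding, was the one called higher. It was 12.7 and 15.3 CPM in CAF-vec against 34.8, 38.3 and 39.1 CPM in CAF-200 (log2 fold-change 1.39, limma adjusted *p* = 0.00279). *Adam9*, the gene of highest mean CPM in this list, had a log2 fold-change of 0.11 (limma adjusted *p* = 0.336). *Rhbdf1*, which encodes an inactive rhomboid protein that helps the sheddase ADAM17 mature, fell from 83.4 and 70.7 CPM to 42.8, 41.2 and 37.9 CPM (log2 fold-change -0.91, limma adjusted *p* = 0.0052). *Adam17* (-0.37) and *Adam15* (-0.44), named after their values were seen, were lower without overlap but did not pass the test. Of the other ligands, *Nrg1*, which encodes neuregulin and acts through ERBB3 and ERBB4, overlapped between groups (log2 fold-change 0.22, limma adjusted *p* = 0.279). *Erbb2*, the ligandless partner of EGFR, fell by 0.85 in log2 CPM (limma adjusted *p* = 0.00738), from 43.4 and 35.2 CPM to 22.8, 20.8 and 21.0 CPM. *Erbb3* and *Erbb4* were too low to be tested, and *Erbb4*, a receptor of epiregulin, was listed at 0 in all 5 samples. The ratio of *Egfr* to *Erbb2* in CPM, again a restatement of the single-gene values, was 0.223 and 0.308 in CAF-vec and 0.642, 0.711 and 0.537 in CAF-200. Of 8 genes for inhibitors of EGFR signaling, 0 were called, and 3 rose at an adjusted *p* under 0.01, as did 4.45% of all genes tested. They were *Errfi1* (log2 fold-change 0.84), *Socs5* (0.65), of the highest mean CPM in this list, and *Lrig1* (0.81), which was named after its values were seen.

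Of the HGF lists, the genes for HGF activation and inhibition held 4 tested genes and 0 calls. *Plat*, the tissue plasminogen activator gene and that of the highest mean CPM, had a log2 fold-change of 0.056 (limma adjusted *p* = 0.701), and *Hpn*, the gene of the HGF-activating protease hepsin, -0.62 (limma adjusted *p* = 0.0532). *Cd44*, a hyaluronan receptor whose variant forms act as MET co-receptors, was called higher among the 4 tested genes of the list for HGF relatives and MET docking. It was 55.2 and 69.6 CPM in CAF-vec against 130.7, 124.7 and 156.1 CPM in CAF-200 (log2 fold-change 1.13, limma adjusted *p* = 0.00619), and 0.97 without CAF-vec 1. Without CAF-vec 2, *Hs6st2* had a log2 fold-change of 0.83, under the fold-change threshold. Each of the 7 calls in these lists was lost without CAF-200 1, 2 or 3, when adjusted *p* values lay above 0.01 at nearly the same fold-changes, and so were the other 8 results past an adjusted *p* of 0.01 alone.

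**Figure D5:**
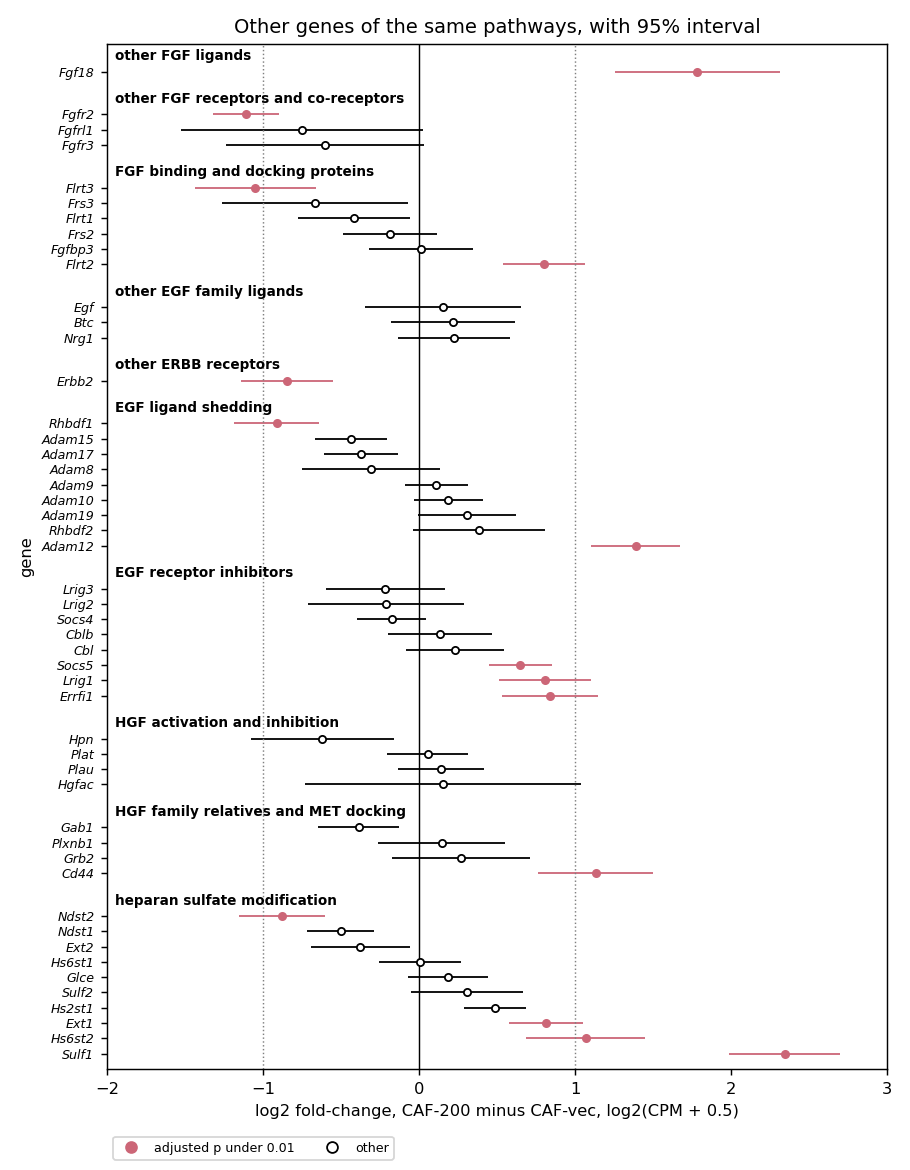
Log2 fold-change of CAF-200 over CAF-vec on log2(CPM + 0.5) for the 49 tested genes of the pathway lists (horizontal axis), grouped by list, with circles at the estimate and bars for the 95% interval. Filled red circles mark an adjusted *p* under 0.01 and dotted lines the fold-change threshold of 1 on the log2 scale. *Sulf1* (2.34), *Fgf18* (1.78) and *Adam12* (1.39) lie farthest to the right, and *Fgfr2* (-1.11) and *Flrt3* (-1.05) farthest to the left.

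Of 7 markers of smooth muscle cells and pericytes, several of which contractile fibroblasts also express, some moved with the same groups. Their summed level over the 7 genes ranged from 157.1 to 170.5 CPM among CAF-vec samples and from 1011 to 1120 CPM among CAF-200 samples. Of the 5 tested, 3 (*Acta2*, *Cnn1* and *Tagln*) were called higher, beside 2.37% of all genes tested. *Des* (log2 fold-change 0.021) and *Cspg4* (-0.41) overlapped between groups, and *Myh11* and *Rgs5* stayed below 0.5 CPM in all samples. Of the 9 fibroblast markers tested, *Dcn*, *Lum* and *Thy1* were called higher and 0 were called lower, 4 had a log2 fold-change above 0 and 5 below it, and *Col3a1* (1.02) was higher and *Col1a1* (-0.91), *Col1a2* (-0.75) and *Pdgfrb* (-0.25) were lower without overlap but did not pass the test. The summed level of the 10 fibroblast markers ranged from 7457 to 14150 CPM in CAF-vec and from 6609 to 7302 CPM in CAF-200. Their part in the values of the growth factor genes was not tested. Epithelial markers summed to at most 0.614 CPM and endothelial markers to at most 1.06 CPM in any sample, with *Krt18*, *Sftpc*, *Tie1*, *Emcn* and *Cldn5* at 0 throughout, and leukocyte markers summed to between 4.73 and 7.51 CPM, nearly all from *Cd68* and *Csf1r*, with *Adgre1* and *Cd3e* at 0.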

How the data were processed

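Bulk RNA of 2 CAF-vec and 3 CAF-200 samples was sequenced by the authors as stranded mRNA libraries. The submitters' processing notes name FastQC, cutadapt, Trimmomatic, STAR, RSEM and edgeR and the builds GRCm38 and mm10, with no versions. The authors deposited 1 table of normalized CPM values, and all 5 of its columns were used. Columns summed to between 999956 and 1000111 CPM. Whole reads could not be recovered from the values (20.0% to 53.8% of low values per sample lay within 0.05 of a whole multiple of the commonest one), so no count test was run and the depth is unknown.

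Values were compared on log2(CPM + 0.5) in limma 3.58.1 under R 4.3.3 (moderated by eBayes with a trended variance, and with no block). A gene entered the fit if 2 or more samples reached 0.5 CPM, which left 12175 genes, and *p* values were adjusted over all of these by the Benjamini-Hochberg method. The fit was tested on simulated data. A call required a log2 fold-change beyond 1 together with an adjusted *p* under 0.01, and intervals are at 95%. Names, coordinates, exon lengths and 3′-UTRs came from GENCODE M21 (GRCm38), matched by Ensembl identifier, and microRNA sequences from RefSeq. Python 3.11.15 with pandas 2.3.3, numpy 2.4.6 and matplotlib 3.10.9 made the summaries and plots. The sources differ on the preparation: the labels give 2 CAF-vec samples, whereas the methods describe extraction in triplicate, and they name different RNA kits and vectors with different resistance genes (Neo in the labels, Hyg in the methods).

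The members and lists were chosen with earlier results of these data known. Named genes are all members, each called gene of the pathway lists, the gene of highest level and that of largest change in each list, *Zeb1* and *Zeb2*, and some of the markers. Genes outside this rule are named in the text as picked once their values were known, and *Erbb3*, *Erbb4* and *Ext2* also lie outside it. The alternatives changed the pseudocount (1 or 0.1 CPM), the filter (none, or 1 CPM in all samples), the scaling (quantiles or sample medians), the variance trend, the thresholds and the design (replicate number as block), or left out 1 sample at a time.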

Additional observations from a re-analysis of the deposited data

How the results depend on the processing

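The 8 members tested under every setting kept their direction in all 13 alternatives, and *Fgf2*, too low for the strict filter, in all 12 of its own. The 2 members called higher became 0 with no filter, 1 with no variance trend and 0 with the replicate block, and lay between 0 and 2 with 1 sample left out, while those called lower, 0, became 1 with a fold-change threshold of 0.5 and stayed at 0 with 1 sample left out. The 5 pathway genes called higher became 3 with no filter, 4 with the strict filter, which leaves out *Fgf18*, 2 with the replicate block and 10 with the lower fold-change threshold, and lay between 0 and 4 with 1 sample left out. The 2 called lower became 1 with a pseudocount of 1 CPM, with the strict filter and with median centring, 0 with the replicate block and 5 with the lower fold-change threshold, and lay between 0 and 4 with 1 sample left out. Beyond the numbers of genes and samples, the cause was not tested. Leaving out a CAF-200 sample left at most 1 call over all genes, with 3816 to 4058 at an unadjusted *p* under 0.05 (limma), whereas without CAF-vec 2 the calls over all genes went from 289 higher and 286 lower to 624 and 906, and leaving out a CAF-vec sample assumes that the lone one varies like the others. Samples of the 2 groups share only a replicate number. Deviations from the group means correlated at 0.249 and 0.134 for same-numbered samples and at 0.119 between CAF-200 3 and CAF-vec 2. With the replicate block the log2 fold-change was 1.20 for *Fgf7* (adjusted *p* = 0.0171, limma), -0.94 for *Fgf10* (0.0235) and 1.42 for *Ereg* (0.0188). Median centring moved the median of all genes from -0.094 to 0.0027. A count test on recovered reads was not run.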
